A study of Mus musculus with 26 samples.

Results

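The genes described here are the orphan and adhesion G protein-coupled receptors of the mouse, taken as every gene whose symbol is Gpr followed by a number, with or without a final letter a, b or c, or Adgr followed by a subfamily letter and a number. The rule found 95 genes among the 48795 in the count table, 22 adhesion receptors and 73 Gpr genes. Their RNA was measured by total RNA sequencing in 2 mouse models of acute myeloid leukaemia made from C57BL/6 myeloid progenitors and cultured with interleukin 3, interleukin 6 and stem cell factor, namely cells transformed by MN1 and cells transformed by Hoxa9 and Meis1 (H9M). In each model the question was what loss of the histone demethylase LSD1 (gene Kdm1a) and treatment with all-trans retinoic acid (ATRA, 1 µM), a differentiating agent, do to gene expression. The 8 groups were LSD1 knockout (KO) with ATRA, KO without ATRA, control (CTL) with ATRA and CTL without ATRA in MN1 cells, and the same 4 in H9M cells, with 3 libraries per group. The knockout was induced by 0.1 µM 4-hydroxytamoxifen for 72 h, which the labels list for KO samples alone, so the effect of the deletion and that of the drug cannot be told apart. All samples, KO included, carry the same floxed LSD1 allele in the strain field, where the inducible Cre recombinase is written as CreERT2-. The labels do not say that the 3 libraries of a group came from separate cultures, so p-values measure the spread between these libraries, which may be technical. In addition, 1 H3K4me2 ChIP-seq library each from lineage-negative bone marrow of GFI-KD and GFI1-WT mice, without replicates, was deposited.

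G protein-coupled receptors cross the membrane several times and pass a signal from outside the cell to a G protein inside it, which then alters cAMP, calcium or the cytoskeleton. Adhesion receptors carry a long outer part that cuts itself and can expose a tethered agonist when the cell is pulled on a matrix or a neighbour. In myeloid cells, receptors of these families sense lipids, metabolites, acid and contact, and some of them, such as the product of Adgre1, are used as surface markers of maturing cells. The name Gpr was given by sequence, and several Gpr genes encode proteins of the Golgi or lysosome that are not known to act as surface receptors.

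Libraries held 22402558 to 32674685 counts. Kdm1a, the gene knocked out, had 2.14 ± 0.264 CPM (the count scaled to the library total) in MN1 KO cells with ATRA and 1.42 ± 0.149 without, against 197 ± 5.44 and 191 ± 2.95 in the matching CTL cells (mean ± SD, n = 3). In H9M it had 11.1 ± 0.654 CPM in KO cells with ATRA and 0.962 ± 0.0313 without, against 148 ± 2.40 and 139 ± 1.25 in CTL cells (n = 3 each). The H9M KO libraries with ATRA thus kept 7.51% of the CTL level with ATRA. Mn1 RNA was at 0 in every H9M library, while Hoxa9 had at least 22290.0 CPM there. Summed myeloid progenitor markers lay between 3385 and 16625 CPM in all 24 libraries, and summed T and NK cell markers at or under 0.184 CPM. The column names carry a code that is the same for the 12 libraries of a model and differs between the models. What it stands for is not given, so the model cannot be told apart from whatever the code marks. In bulk RNA, fewer cells of a type and less RNA per cell cannot be told apart either.

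Of the 95 genes, 79 had at least 1 count in the 24 libraries, 21 of 22 adhesion receptors and 58 of 73 Gpr genes. The 16 without any count included Adgra1, Gpr6, Gpr17, Gpr25, Gpr26, Gpr27, Gpr33, Gpr83, Gpr101, Gpr139, Gpr143, Gpr149, Gpr152, Gpr165 and Gpr173, among which are receptors known from brain and pigment cells. A further 17 had 1 to 10 counts in all libraries together. A mean of at least 1 CPM was reached by 38 genes in at least 1 group and by 17 genes in every group. Enough counts for a test were present for 45 genes, 11 adhesion receptors and 34 Gpr genes. The 34 detected but untested genes stayed at or under 0.384 CPM in every group mean, the highest being Adgrg5. A gene that was kept only because 1 group is high had to differ between groups, so the counts of called genes below describe the tested genes and say nothing of all 95.

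Of the 38 receptors that reached a mean of 1 CPM in a group, 23 did so in both models. Adhesion receptors took 84.5% to 87.2% of the receptor reads in the MN1 groups and 57.5% to 67.9% in the H9M groups. In MN1 cells the 5 highest mean CPM values belonged to Adgrg1, Adgre1, Adgrg6, Adgrg3 and Adgra2. In H9M cells the highest values were those of Adgrg3, Adgrg1, Adgre5, Adgre1 and Gpr141. CPM is not corrected for transcript length, so these are shares of reads and not an order of expression between genes. A total of 10 genes reached 1 CPM in an MN1 group and in no H9M group, namely Adgrg2, Adgrg6, Gpr34, Gpr39, Gpr85, Gpr161, Gpr162, Gpr174, Gpr176 and Gpr179. The reverse held for 5 genes, Adgrd1, Adgrg7, Gpr18, Gpr35 and Gpr137b. The 10 and 5 genes are 26.3% and 13.2% of the 38, where 7.71% and 5.18% of the 12895 genes of the table with 1 CPM in a group reached it in MN1 alone and in H9M alone. Some lay near the cut. Gpr137b passed it only in H9M KO cells with ATRA, at 1.31 CPM, beside 0.918 CPM in MN1 KO cells without ATRA. In CTL cells without ATRA Gpr137b was called higher in MN1 (0.466 CPM) than in H9M (0.174 CPM). Gpr34 had 0.933 CPM in H9M KO cells with ATRA.

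**Figure D1:**
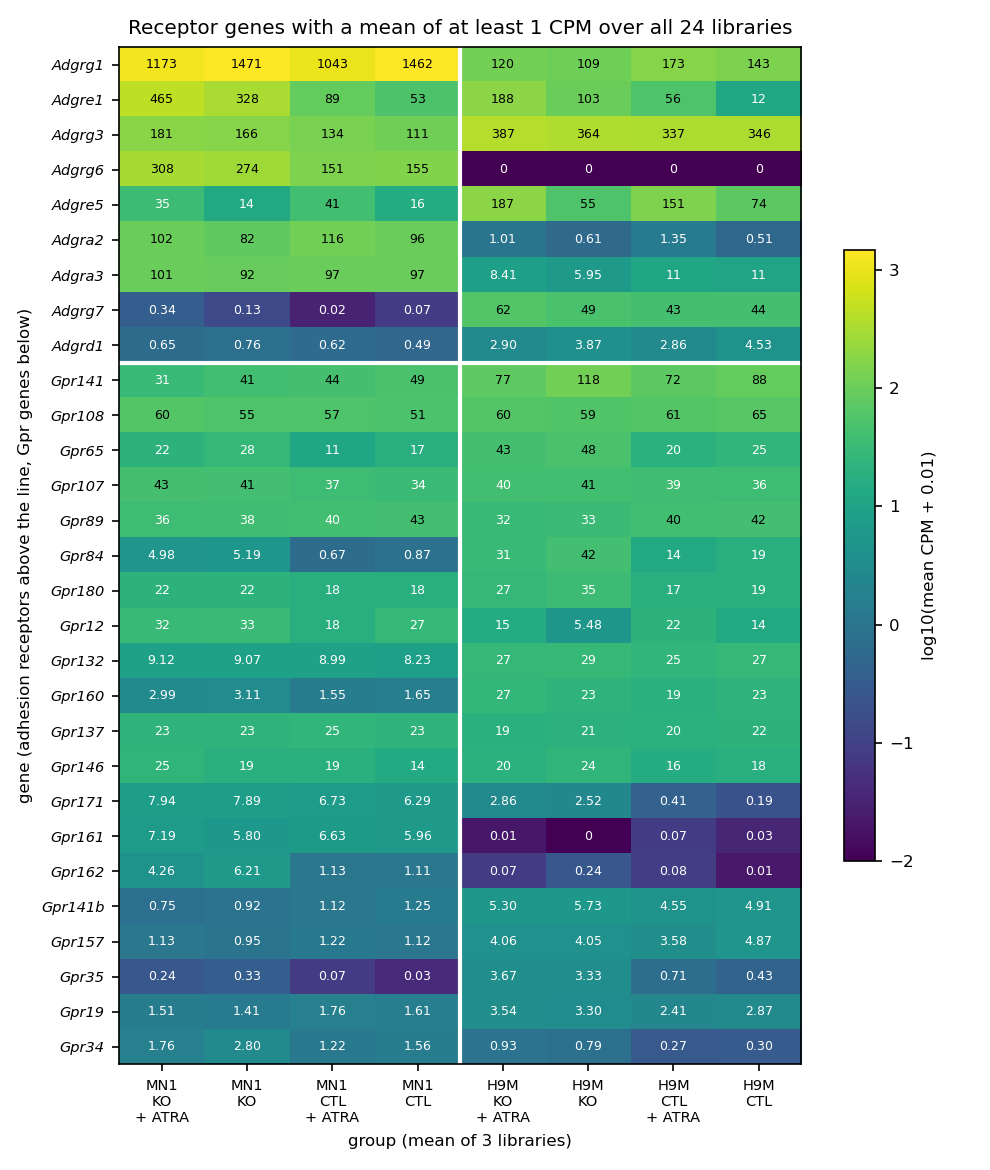
Mean CPM (n = 3 libraries) of 29 receptor genes with a mean of at least 1 CPM over all 24 libraries, genes down the page and the 8 groups across, with the colour on a log10 scale after adding 0.01. Adgrg6, Adgra2 and Adgrg1 are brighter in the MN1 columns on the left, while Adgrg7 and Gpr35 are brighter in the H9M columns.

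Between CTL cells without ATRA, 39 of the 45 tested genes differed between the models, 18 higher and 21 lower in MN1, where 73.5% of all tested genes differed. The test was edgeR's quasi-likelihood F test over all 14663 tested genes with Benjamini-Hochberg adjustment, and calls needed an adjusted p below 0.05. Adgrg6 (GPR126), an adhesion receptor needed for myelination by Schwann cells, had 147, 156 and 161 CPM in MN1 CTL cells and not 1 read in any of the 12 H9M libraries. Against the limit of 3 counts for the H9M CTL group that is at least 4110.0-fold higher in MN1, where limits and intervals cover counting error only. Adgrg1 (GPR56), which binds collagen and is a marker of human blood stem cells, averaged 1462 ± 27.4 CPM in MN1 and 143 ± 3.39 CPM in H9M CTL cells (log2 fold change 3.27 ± 0.04, adjusted p 2.91e-33). Adgra2 (GPR124), a co-receptor for Wnt ligands in brain vessels, averaged 96.0 ± 8.35 CPM in MN1 and 0.512 ± 0.261 CPM in H9M (7.48 ± 0.27, adjusted p 1.33e-29). Adgrg7, an orphan with known expression in gut, went the other way, at 0.0682 ± 0.0649 CPM in MN1 and 43.7 ± 0.816 CPM in H9M (-9.31 ± 0.64, adjusted p 4.26e-28). Adgrg3 lies 2904 bases downstream of Adgrg1 on chromosome 8 (GRCm38) and was lower in MN1 cells, where Adgrg1 was higher, at 111 ± 2.78 CPM against 346 ± 9.79 CPM in H9M. None of the replicate values of MN1 and H9M overlapped for these 5 genes. The share of all tested genes with separate replicates was not counted, so no background stands beside this. Summed markers of mast cells and basophils were also far apart, at 1041 to 1109 CPM in MN1 CTL and 17.3 to 18.7 CPM in H9M CTL cells, as were those of megakaryocytes, at 104 to 108 CPM and 2.20 to 2.77 CPM. Cpa3 made up most of the first sum in MN1, at a mean of 1001 CPM against 0.0259 CPM in H9M. Without Cpa3 the sums were 70.8 to 77.5 CPM and 17.3 to 18.6 CPM, and Mcpt8 went the other way, at 8.13 and 16.9 CPM. Itga2b made up most of the second sum in MN1, at 101 CPM against 0.0632 CPM in H9M. Without Itga2b the sums were 4.60 to 6.01 CPM and 2.04 to 2.75 CPM. The part of these markers in the receptor differences was not tested.

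Loss of LSD1 was accompanied by higher RNA of many of these receptors in both models. Without ATRA, 27 of 45 tested genes were higher and 4 lower in MN1 KO than in MN1 CTL cells, where 28.7% of all tested genes were called higher and 26.3% lower. In H9M KO cells 21 were higher and 6 lower, against 26.1% and 25.4% of all tested genes. With ATRA, 25 were higher and 6 lower in MN1 KO cells (28.6% and 28.6% of all tested genes), and 19 were higher and 4 lower in H9M KO cells (26.7% and 24.4%). The median log2 fold change over the 45 genes was 0.61 in MN1 and 0.30 in H9M without ATRA, beside 0.01 and 0 over all tested genes. Among the 30 genes with a mean of at least 1 CPM over all libraries, 16 were higher and 4 lower in MN1 KO cells without ATRA, and 14 were higher and 6 lower in H9M KO cells. With ATRA these counts were 15 and 6 in MN1, and 14 and 4 in H9M. The shares called among all genes at this level were not counted, so these counts have no background beside them. The comparisons with and without ATRA use different libraries, and 10 genes were called higher in all 4 of them, among them Adgre1, Adgrg3, Gpr18, Gpr35, Gpr65, Gpr84, Gpr137b, Gpr146 and Gpr180. Gpr89 alone was called lower in all 4. Adgre5, Adgrg1, Gpr12, Gpr108 and Gpr141 were called higher in some KO comparisons and lower in others, and Adgrd1, Adgrg2, Gpr132, Gpr157, Gpr161 and Gpr176 were called in none. The shares of all tested genes called in all 4, in both directions or in none were not counted, so no background stands beside these.

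Marker genes of other myeloid cells moved with the knockout too, and so did those of myeloid progenitors. Without ATRA the progenitor markers summed to 6689 to 6814 CPM in MN1 KO and 4186 to 4337 CPM in MN1 CTL cells. In H9M they summed to 16395 to 16625 CPM in KO and 13387 to 13887 CPM in CTL cells. Without Mpo the H9M sums overlapped, at 8178.9 to 8283.4 CPM and 7905.2 to 8376.5 CPM. Cd34 had 964 CPM in H9M KO and 214 CPM in H9M CTL cells, and Kit 133 and 268 CPM. Summed neutrophil markers reached 438 to 478 CPM in MN1 KO and 14.8 to 16.2 CPM in MN1 CTL cells without ATRA, and 1505 to 1794 CPM in H9M KO against 22.6 to 24.1 CPM in H9M CTL cells, with Ltf at 0 in H9M CTL. Mmp8 made up most of these sums in KO cells, at a mean of 438 CPM in MN1 KO and 12.3 CPM in MN1 CTL cells, and 1548 CPM in H9M KO and 1.71 CPM in H9M CTL cells. Without Mmp8 the sums were 19.8 to 20.6 CPM in MN1 KO and 2.87 to 4.33 CPM in MN1 CTL cells, and 85.3 to 90.8 CPM in H9M KO and 20.8 to 22.5 CPM in H9M CTL cells, while Ltf, Camp and Ngp had at most 0.455 CPM in any of these group means. Of 6 tested neutrophil markers of 7 listed, 5 were higher and none lower in each model. Summed monocyte and macrophage markers lay at 23.1 to 24.9 CPM in MN1 KO and 8.84 to 10.6 CPM in MN1 CTL cells, with Ly86 at 0 in both, and at 298 to 306 CPM in H9M KO against 32.6 to 36.3 CPM in H9M CTL cells, with Mertk at 0 in both and Ly86 at 0 in H9M CTL. All 5 tested of 7 listed were higher in each model. In MN1 the 3 tested mast cell and basophil markers of 4 listed were higher as well, summing to 1944 to 1980 CPM in KO and 1041 to 1109 CPM in CTL cells. Cpa3 made up most of these MN1 sums, which without it were 128 to 142 CPM in KO and 70.8 to 77.5 CPM in CTL cells. In H9M the mast cell and basophil markers summed to 9.595 to 10.1 CPM in KO and 17.3 to 18.7 CPM in CTL cells, with 1 of 3 tested higher and 1 lower. Megakaryocyte markers summed to 144 to 152 CPM in MN1 KO and 104 to 108 CPM in MN1 CTL cells, with all 4 higher, and to 8.13 to 10.4 CPM in H9M KO and 2.20 to 2.77 CPM in H9M CTL cells, with 2 of 4 higher. Itga2b made up most of the MN1 sums, which without it were 7.59 to 9.42 CPM in KO and 4.60 to 6.01 CPM in CTL cells. The part of these cell states in the receptor changes below was not tested.

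Adgre1, which encodes the mouse macrophage antigen F4/80, was higher in KO cells and with ATRA in all 8 comparisons. In MN1 cells Adgre1 had 473, 464 and 459 CPM in KO libraries with ATRA, 337, 327 and 322 CPM in KO libraries without it, 108, 81.8 and 78.2 CPM in CTL libraries with ATRA and 47.8, 55.9 and 54.5 CPM in CTL libraries without it. In H9M cells Adgre1 had 188, 188 and 188 CPM in KO libraries with ATRA, 96.2, 106 and 106 CPM in KO libraries without it, 56.8, 52.7 and 57.1 CPM in CTL libraries with ATRA and 13.5, 12.6 and 10.6 CPM in CTL libraries without it. Each KO group lay above its CTL group and each ATRA group above its untreated group, with no overlap in any of the 8 comparisons. KO over CTL without ATRA gave a log2 fold change of 2.63 ± 0.07, adjusted p 9.01e-23 in MN1 and 3.08 ± 0.10, adjusted p 2.08e-22 in H9M (± SE). With ATRA the KO changes were 2.36 ± 0.07 and 1.76 ± 0.08. ATRA over none gave 0.74 ± 0.08 in MN1 CTL and 2.22 ± 0.10 in H9M CTL cells, and 0.46 ± 0.07 and 0.90 ± 0.07 in the KO cells. In H9M the combined change was smaller than the sum of both single ones, with an interaction of -1.32 ± 0.12, adjusted p 6.53e-09. The MN1 interaction was -0.28 ± 0.10 and did not pass (adjusted p 0.177).

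Adgre5 encodes CD97, an adhesion receptor of leukocytes that binds CD55, and rose with ATRA in every group. In MN1 cells Adgre5 had 34.1, 36.7 and 33.7 CPM in KO libraries with ATRA, 12.7, 14.5 and 13.3 CPM in KO libraries without it, 43.3, 38.9 and 40.4 CPM in CTL libraries with ATRA and 15.4, 17.7 and 15.3 CPM in CTL libraries without it. In H9M cells Adgre5 had 182, 191 and 187 CPM in KO libraries with ATRA, 56.2, 52.5 and 56.6 CPM in KO libraries without it, 146, 155 and 151 CPM in CTL libraries with ATRA and 74.5, 70.8 and 75.3 CPM in CTL libraries without it. All 12 libraries with ATRA lay above the untreated libraries of the same model and genotype, by a log2 fold change of 1.33 ± 0.06 in MN1 KO, 1.32 ± 0.06 in MN1 CTL, 1.79 ± 0.05 in H9M KO and 1.07 ± 0.05 in H9M CTL cells, with adjusted p at or below 2.47e-16. The KO changes were small and of both signs, at -0.25 ± 0.05 with ATRA and -0.26 ± 0.07 without in MN1, and 0.31 ± 0.04 with ATRA and -0.40 ± 0.05 without in H9M, all 4 called. The H9M interaction was 0.71 ± 0.07, adjusted p 7.7e-09. Adgre5 shares 3660 bases with Ddx39a on chromosome 8, and which strand was counted is not stated, so part of its reads could belong to the neighbour.

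**Figure D2:**
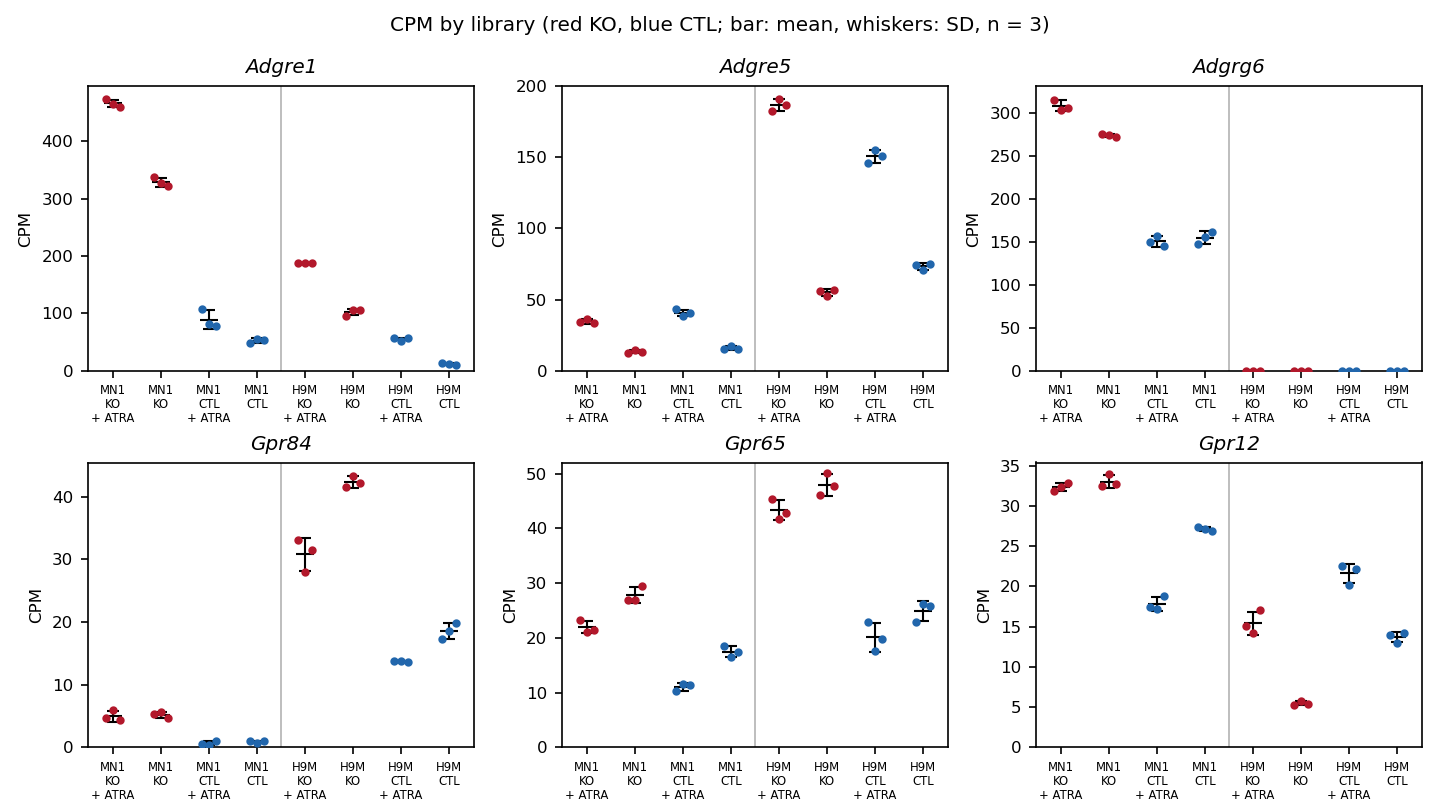
CPM of 6 receptor genes in each library (points), with the mean (bar) and SD (whiskers) of each group of 3, MN1 left of H9M and KO in red left of CTL in blue. Adgre1 rises with both factors, Adgre5 with ATRA in all 4 pairs, Adgrg6 is at 0 in H9M, and Gpr12 is lower in KO than in CTL cells in H9M but higher in MN1.

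Adgrg6 had reads in MN1 cells alone. It had 315, 304 and 306 CPM in KO libraries with ATRA, 276, 274 and 272 in KO libraries without it, 150.1, 157 and 145 in CTL libraries with ATRA and 147, 156 and 161 in CTL libraries without it. The KO libraries lay above all CTL libraries (log2 fold change 0.82 ± 0.04, adjusted p 3.35e-14 without ATRA and 1.01 ± 0.04, adjusted p 6.72e-16 with ATRA). ATRA raised it slightly in KO cells (0.13 ± 0.04), and in CTL cells the ATRA and untreated libraries overlapped. Adgrg3 (GPR97), known from neutrophils, was higher in KO cells in all 4 comparisons, by 0.42 ± 0.03 with ATRA and 0.58 ± 0.03 without in MN1, and by 0.20 ± 0.03 and 0.09 ± 0.03 in H9M. Its neighbour Adgrg1 did otherwise. On the log2 scale Adgrg1 fell by 0.53 ± 0.04 with ATRA and by 0.38 ± 0.04 without in H9M KO cells, while in MN1 the change was 0.15 ± 0.04 with ATRA and 0.00 ± 0.04 without, where the change without ATRA was not called.

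ATRA moved Adgrg1 in opposite directions in the models. It fell by 0.51 ± 0.04 in MN1 CTL and by 0.37 ± 0.04 in MN1 KO cells, and rose by 0.32 ± 0.04 in H9M CTL and 0.17 ± 0.04 in H9M KO cells on the log2 scale, all called. In H9M KO cells its replicates with and without ATRA overlapped. Adgra2 rose with ATRA in MN1 CTL (0.25 ± 0.06) and H9M CTL cells (1.45 ± 0.32), where its H9M level was 1.35 CPM with ATRA and 0.512 CPM without. Adgra3 (GPR125) fell in H9M KO cells, by 0.80 ± 0.09 without ATRA and 0.39 ± 0.08 with it, to 5.95 CPM against 10.5 CPM in CTL cells without ATRA. In MN1 its level lay between 92.0 and 101 CPM in all 4 group means, and no MN1 comparison passed. Adgrg7 rose in H9M KO cells by 0.19 ± 0.07 without ATRA and 0.52 ± 0.07 with it. In MN1 with ATRA it had 28 counts in KO and 2 in CTL cells, a ratio of 14.5 (95% counting interval 3.65 to 125), and was called higher. Adgrf1 (GPR110) was higher in H9M KO than CTL cells without ATRA at 0.967 and 0.239 CPM (1.99 ± 0.40, adjusted p 5.12e-05), and had 4 counts in MN1 KO and 0 in MN1 CTL cells. With ATRA it had 9 counts in MN1 KO and 0 in MN1 CTL cells, at least 3.06-fold higher.

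Of 9 receptors for lipids and metabolites 7 were tested, and without ATRA 6 were higher in MN1 KO cells (Gpr18, Gpr34, Gpr35, Gpr55, Gpr84 and Gpr174) and 5 in H9M KO cells (Gpr18, Gpr34, Gpr35, Gpr84 and Gpr183), with none lower in either, where 28.7% and 26.1% of all tested genes were called higher. With ATRA 5 were higher in each model, beside 28.6% and 26.7% of all tested genes. Gpr84, a receptor for medium-chain fatty acids that is induced in inflamed myeloid cells, carried the most reads of the class. In MN1 cells Gpr84 had 4.64, 5.98 and 4.32 CPM in KO libraries with ATRA, 5.34, 5.61 and 4.63 CPM in KO libraries without it, 0.524, 0.445 and 1.03 CPM in CTL libraries with ATRA and 1.02, 0.646 and 0.95 CPM in CTL libraries without it. In H9M cells Gpr84 had 33.1, 27.9 and 31.4 CPM in KO libraries with ATRA, 41.6, 43.3 and 42.2 CPM in KO libraries without it, 13.7, 13.8 and 13.6 CPM in CTL libraries with ATRA and 17.3, 18.6 and 19.9 CPM in CTL libraries without it. All KO libraries lay above all CTL libraries of their model. The KO change without ATRA was 2.58 ± 0.21, adjusted p 4.74e-13 in MN1 and 1.20 ± 0.08, adjusted p 1.08e-13 in H9M, and with ATRA 2.89 ± 0.24 and 1.17 ± 0.09. ATRA lowered it in H9M, by 0.44 ± 0.08 in KO and 0.40 ± 0.09 in CTL cells, and the MN1 groups with and without ATRA overlapped.

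Gpr35, for which kynurenic acid is among the proposed ligands, had its highest values in H9M KO cells. In H9M cells Gpr35 had 4.48, 3.01 and 3.53 CPM in KO libraries with ATRA, 3.08, 3.35 and 3.55 CPM in KO libraries without it, 0.734, 0.867 and 0.528 CPM in CTL libraries with ATRA and 0.501, 0.426 and 0.353 CPM in CTL libraries without it. In MN1 the group means were 0.238, 0.334, 0.0682 and 0.0341 CPM in KO cells with ATRA, KO cells without it, CTL cells with ATRA and CTL cells without it. In H9M every KO library lay above every CTL library (log2 fold change 2.97 ± 0.33, adjusted p 3.64e-10 without ATRA and 2.35 ± 0.28, adjusted p 6.11e-09 with ATRA). In MN1 the 26 counts in KO and 3 in CTL cells without ATRA gave a ratio of 9.89 (95% counting interval 3.03 to 51.0). Gpr35 overlaps the long non-coding RNA 9430060I03Rik on chromosome 1 over 2539 bases.

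Other members of the class were low. Gpr18 and the oxysterol receptor Gpr183, which guides B cells and dendritic cells, lie 36442 bases apart on chromosome 14 within the span of Ubac2. Gpr18 had 135 counts in H9M KO and 20 in H9M CTL cells without ATRA (2.83 ± 0.40, adjusted p 4.11e-08). Gpr183 had 44 counts in H9M KO and 0 in H9M CTL cells with ATRA, at least 14.1-fold higher. The lysophosphatidylserine receptor Gpr34, which overlaps Cask on the X chromosome, averaged 2.80 CPM in MN1 KO and 1.56 CPM in MN1 CTL cells (0.84 ± 0.26, adjusted p 0.00671). Gpr174, a second receptor for the same lipid, rose in MN1 KO cells by 1.10 ± 0.25 without ATRA and 1.40 ± 0.32 with it, and fell with ATRA by 1.00 ± 0.33 in CTL and 0.70 ± 0.24 in KO cells. The lysophosphatidylinositol receptor Gpr55 had 28 counts in MN1 KO and 3 in MN1 CTL cells without ATRA, a ratio of 10.7 (95% counting interval 3.29 to 54.7). The fatty acid amide receptor Gpr119 and Gpr31b had too few counts to test.

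Among proton-sensing receptors Gpr65 rose in KO cells of both models, Gpr4 was not tested, and Gpr132 was called in no KO or ATRA comparison. Gpr65 (TDAG8) answers acid with a rise of cAMP. In MN1 cells Gpr65 had 23.2, 21.1 and 21.5 CPM in KO libraries with ATRA, 26.997, 27.01 and 29.5 CPM in KO libraries without it, 10.2, 11.6 and 11.4 CPM in CTL libraries with ATRA and 18.5, 16.5 and 17.4 CPM in CTL libraries without it. In H9M cells Gpr65 had 45.4, 41.8 and 42.8 CPM in KO libraries with ATRA, 46.1, 50.0 and 47.6 CPM in KO libraries without it, 22.9, 17.6 and 19.7 CPM in CTL libraries with ATRA and 22.9, 26.3 and 25.8 CPM in CTL libraries without it. All KO libraries lay above all CTL libraries of the same model. The KO change without ATRA was 0.67 ± 0.07, adjusted p 4.41e-09 in MN1 and 0.95 ± 0.07, adjusted p 4.1e-13 in H9M. ATRA lowered it, by 0.68 ± 0.08 in MN1 CTL, 0.39 ± 0.07 in MN1 KO and 0.27 ± 0.07 in H9M CTL cells, though in H9M CTL the replicates with and without ATRA overlapped. In H9M KO the ATRA change was -0.12 ± 0.06 and was not called (adjusted p 0.164). Gpr132 had group means from 8.23 to 9.12 CPM in MN1 and from 25.2 to 28.8 CPM in H9M.

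The 250 bases before the RefSeq start site (GRCm38.p6) are shown for Gpr84, Gpr65 and Gpr35. H3K4me2, a histone mark that LSD1 removes and that marks promoters and enhancers, was measured around start sites. Adgre1 and Gpr137b, whose RNA was higher in KO cells in all 4 comparisons, had no start site to read. Among the receptors higher in all 4 that had a start site, Gpr84, Gpr65 and Gpr35 had the highest ratios of the mark between GFI-KD and GFI1-WT cells. They were chosen after these ratios were seen. Capitals mark 2 short motifs searched on both strands, AGGAAGT, the core bound by PU.1 and other ETS factors, and AATCAC, the core bound by GFI1, a repressor that recruits LSD1. AGGAAGT or its complement was present in 2116 of 27025 promoters of this length (7.83%) and AATCAC in 2458 (9.10%). Among 67 receptor promoters 6 held the first and 8 the second. A match describes letters and does not show a bound site, and a promoter without capitals says only that these letters are absent from the window.
Gpr84, chr15:103310439-103310688, - strand: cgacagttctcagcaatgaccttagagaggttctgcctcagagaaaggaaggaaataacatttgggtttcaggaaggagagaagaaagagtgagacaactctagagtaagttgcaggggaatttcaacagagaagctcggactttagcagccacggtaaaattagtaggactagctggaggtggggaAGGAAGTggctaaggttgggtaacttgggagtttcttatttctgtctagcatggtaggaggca
Gpr65, chr12:98268385-98268634, + strand: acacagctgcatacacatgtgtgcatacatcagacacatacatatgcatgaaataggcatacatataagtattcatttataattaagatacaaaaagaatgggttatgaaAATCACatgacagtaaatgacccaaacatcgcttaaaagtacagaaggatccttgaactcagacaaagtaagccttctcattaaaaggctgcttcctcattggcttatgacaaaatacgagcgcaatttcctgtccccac
Gpr35, chr1:92972869-92973118, + strand: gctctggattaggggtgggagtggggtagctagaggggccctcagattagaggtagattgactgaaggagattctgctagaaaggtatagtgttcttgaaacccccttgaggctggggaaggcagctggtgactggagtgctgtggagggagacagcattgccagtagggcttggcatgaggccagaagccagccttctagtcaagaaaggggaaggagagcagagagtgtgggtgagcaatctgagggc
The ETS core begins 63 bases before the start of Gpr84, and the GFI1 core 140 bases before that of Gpr65. The GC content of the windows is 46.0% for Gpr84, 36.8% for Gpr65 and 55.2% for Gpr35. Reads were counted within 1 kb of the start and are given as RPM, the reads scaled to the library's total in the way of CPM. Gpr84 had 17.9 RPM in GFI-KD cells and 9.95 in GFI1-WT cells (ratio 1.80, 95% counting interval 1.39 to 2.36). Gpr65 had 24.4 RPM in GFI-KD cells and 13.2 in GFI1-WT cells (ratio 1.85, 95% counting interval 1.48 to 2.33). Gpr35 had 21.9 RPM in GFI-KD cells and 6.48 in GFI1-WT cells (ratio 3.38, 95% counting interval 2.52 to 4.60). Of the other receptors higher in all 4 comparisons, Gpr18 had 16.2 RPM in GFI-KD cells and 11.2 in GFI1-WT cells (ratio 1.45, 95% counting interval 1.12 to 1.89). Adgrg3 had 13.3 RPM in GFI-KD cells and 9.50 in GFI1-WT cells (ratio 1.40, 95% counting interval 1.06 to 1.87). The intervals of Gpr180 and Gpr146 included 1, with a ratio of 1.13 (95% counting interval 0.95 to 1.35) for Gpr180 and 1.02 (0.866 to 1.19) for Gpr146. These intervals compare 2 libraries and not 2 genotypes.

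Gpr12, a receptor that raises cAMP without a known added ligand, responded in opposite directions in the models. In MN1 cells Gpr12 had 31.8, 32.4 and 32.8 CPM in KO libraries with ATRA, 32.4, 33.9 and 32.7 CPM in KO libraries without it, 17.4, 17.2 and 18.8 CPM in CTL libraries with ATRA and 27.3, 27.1 and 26.9 CPM in CTL libraries without it. In H9M cells Gpr12 had 15.1, 14.2 and 17.0 CPM in KO libraries with ATRA, 5.27, 5.79 and 5.38 CPM in KO libraries without it, 22.5, 20.2 and 22.1 CPM in CTL libraries with ATRA and 14.0, 13.0 and 14.2 CPM in CTL libraries without it. In MN1 the CTL libraries with ATRA were lowest and the 2 KO groups overlapped at the top, whereas in H9M the KO libraries without ATRA were lowest and the CTL libraries with ATRA highest. KO over CTL without ATRA was 0.28 ± 0.06, adjusted p 7.49e-05 in MN1 and -1.31 ± 0.08, adjusted p 1.23e-14 in H9M. ATRA over none in CTL cells was -0.63 ± 0.06, adjusted p 1.22e-09 in MN1 and 0.70 ± 0.06, adjusted p 7.11e-10 in H9M. The difference between the models was 1.59 ± 0.10, adjusted p 6.11e-14 for the KO effect and -1.33 ± 0.09, adjusted p 1.54e-12 for the ATRA effect. The knockout and ATRA interacted in both models, by 0.56 ± 0.08, adjusted p 4.11e-05 in MN1 and 0.82 ± 0.10, adjusted p 2.11e-06 in H9M. Of its 2 relatives, Gpr6 had no count and Gpr3 too few to test.

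Among 9 genes for proteins of internal membranes 7 were tested. Gpr89, a Golgi anion channel that helps acidify the Golgi, fell in KO cells by 0.16 ± 0.05 with ATRA and 0.18 ± 0.05 without in MN1, and by 0.33 ± 0.05 and 0.32 ± 0.05 in H9M, at group means of 31.8 to 42.7 CPM. Gpr180 rose in all 4 KO comparisons, by 0.29 ± 0.07 and 0.30 ± 0.07 in MN1 and 0.70 ± 0.07 and 0.87 ± 0.07 in H9M, with and without ATRA in that order. Gpr137b, a lysosomal protein that acts on mTORC1, rose in all 4 as well, by 2.08 ± 0.46 and 0.97 ± 0.34 in MN1 and 2.40 ± 0.42 and 1.94 ± 0.48 in H9M, but it reached no more than 1.31 CPM in a group mean and has a pseudogene copy that could take or lend reads. The Golgi proteins Gpr107 and Gpr108 had group means of 33.8 to 43.3 CPM and 51.4 to 65.5 CPM. Gpr107 was called higher in MN1 KO cells with and without ATRA and in H9M KO cells without it. Gpr108 was called higher in MN1 KO and lower in H9M KO cells, both without ATRA. Gpr108 lies within Trip10 on chromosome 17, and Gpr89 shares 2629 bases with Pdzk1 on chromosome 3. Part of their reads could belong to these neighbours. Gpr155 had 36 counts in H9M KO and 1 in H9M CTL cells without ATRA, a ratio of 38.3 (95% counting interval 6.45 to 1555), while MN1 KO and CTL cells had 62 and 68 counts.

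Of the 42 remaining orphan receptors 31 were detected and 14 tested. Gpr171, a receptor for which the peptide BigLEN has been reported, gave the widest difference in KO effect between the models among genes with at least 2 CPM in a group. In MN1 cells Gpr171 had 8.14, 8.11 and 7.56 CPM in KO libraries with ATRA, 7.51, 8.17 and 7.98 CPM in KO libraries without it, 6.81, 7.59 and 5.78 CPM in CTL libraries with ATRA and 7.21, 6.43 and 5.24 CPM in CTL libraries without it. In H9M cells Gpr171 had 3.68, 2.06 and 2.85 CPM in KO libraries with ATRA, 2.41, 2.79 and 2.34 CPM in KO libraries without it, 0.44, 0.26 and 0.528 CPM in CTL libraries with ATRA and 0.27, 0.106 and 0.196 CPM in CTL libraries without it. The KO libraries of H9M lay above the CTL libraries with and without ATRA (log2 fold change 3.72 ± 0.44, adjusted p 3.3e-11 without ATRA), while in MN1 the change without ATRA was 0.33 ± 0.13, adjusted p 0.0307. Gpr171 lies inside Med12l on chromosome 3, and its counts could hold reads of that gene.

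Gpr162, a receptor without an agreed ligand, rose in MN1 KO cells. In MN1 cells Gpr162 had 4.95, 4.10 and 3.73 CPM in KO libraries with ATRA, 7.02, 6.01 and 5.59 CPM in KO libraries without it, 1.18, 1.20 and 1.03 CPM in CTL libraries with ATRA and 1.21, 0.775 and 1.34 CPM in CTL libraries without it. The MN1 KO libraries lay above all MN1 CTL libraries, by 2.48 ± 0.19, adjusted p 5.23e-13 without ATRA and 1.87 ± 0.20, adjusted p 5.73e-10 with ATRA, and within KO cells ATRA lowered the gene by 0.59 ± 0.15. In H9M it had 18 counts in KO and 1 in CTL cells without ATRA. Gpr162 shares 2327 bases with the long non-coding RNA Gm32404 on chromosome 6.

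Gpr141 fell with ATRA in all 4 groups, by 0.45 ± 0.07 in MN1 KO, 0.18 ± 0.06 in MN1 CTL, 0.59 ± 0.06 in H9M KO and 0.26 ± 0.06 in H9M CTL cells. In MN1 CTL cells its replicates with and without ATRA overlapped. The KO change of Gpr141 without ATRA was -0.28 ± 0.06, adjusted p 0.000572 in MN1 and 0.43 ± 0.06, adjusted p 2.34e-07 in H9M. Its neighbour 16724 bases away on chromosome 13, Gpr141b, was lower in MN1 KO than CTL cells with ATRA (-0.59 ± 0.25, adjusted p 0.0397) and passed no other of the 8 tests. Gpr146, which in mouse liver acts on cholesterol levels in blood, rose in all 4 KO comparisons, by 0.37 ± 0.06 and 0.43 ± 0.07 in MN1 and 0.38 ± 0.07 and 0.47 ± 0.06 in H9M. ATRA raised Gpr146 in MN1 CTL (0.39 ± 0.07) and MN1 KO cells (0.33 ± 0.06) and lowered it in H9M KO cells (-0.22 ± 0.06). It lies within 3110082I17Rik on chromosome 5. Gpr160 rose in MN1 KO cells by 0.91 ± 0.14 without ATRA and 0.90 ± 0.14 with it, to 3.11 CPM against 1.65 CPM in CTL cells without ATRA. The zinc receptor Gpr39 had 50 counts in MN1 KO and 18 in MN1 CTL cells without ATRA (1.63 ± 0.48, adjusted p 0.00356), and none in any H9M group. Of 3 SREB receptors, a small family known from brain, Gpr85 alone was tested, with 135 counts in MN1 KO and 12 in MN1 CTL cells without ATRA (3.63 ± 0.50, adjusted p 1.1e-08). Of 3 class C orphans Gpr179, known from retinal bipolar cells, was higher in MN1 KO than CTL cells, by 1.47 ± 0.35 without ATRA and 0.77 ± 0.29 with it.

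**Figure D3:**
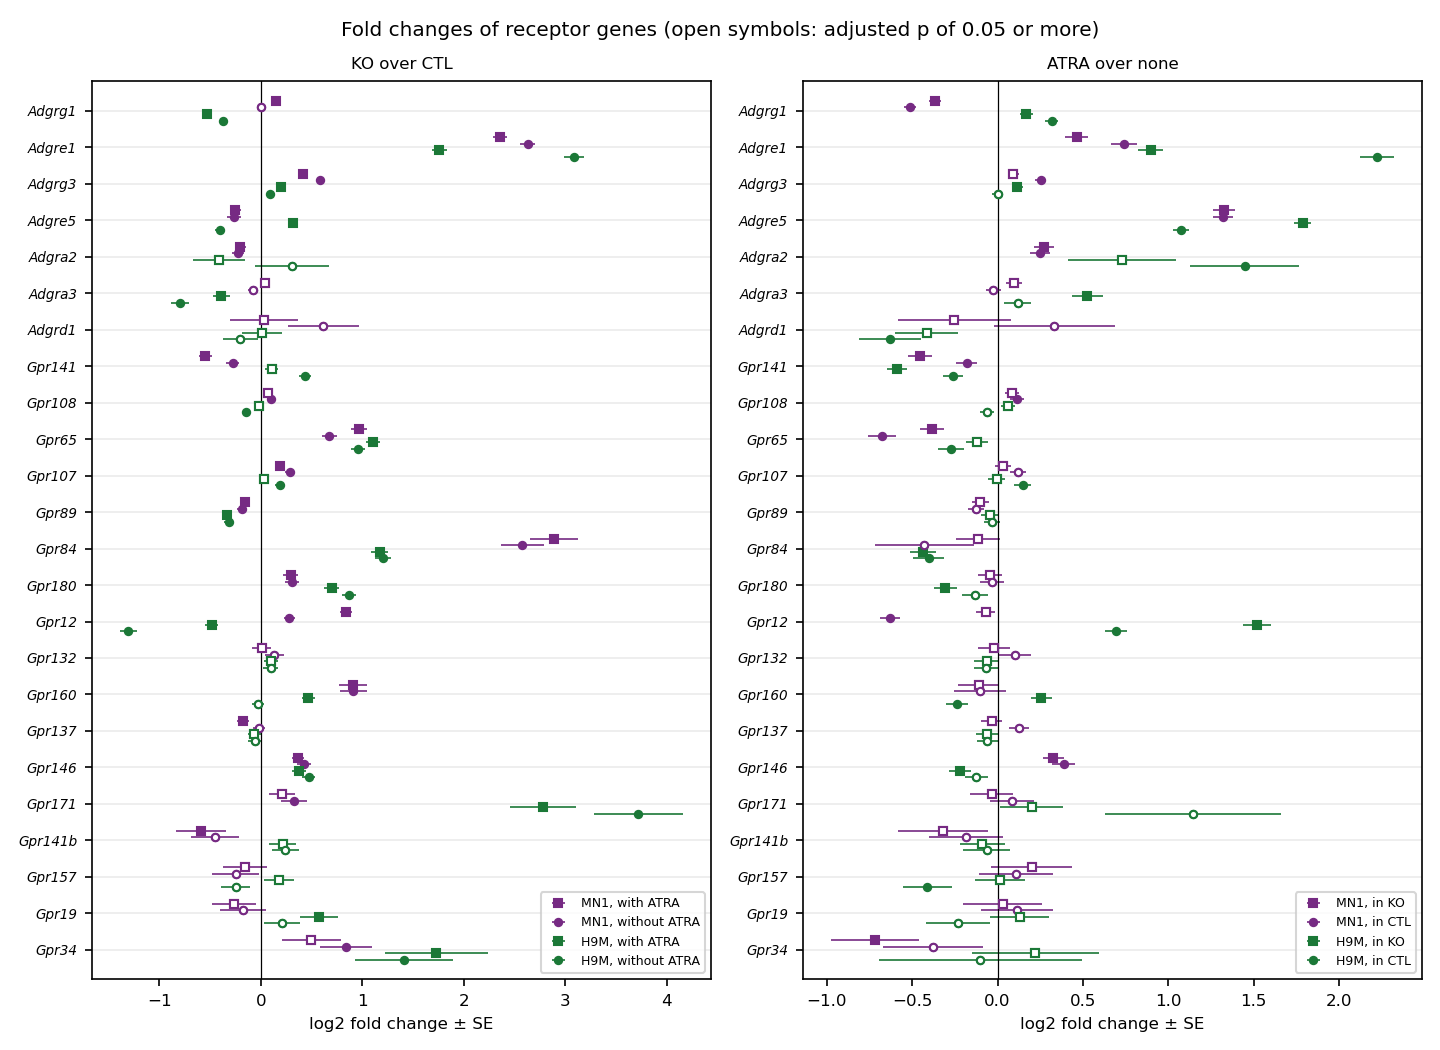
Log2 fold changes (± SE, on the x axis) of 24 receptor genes with a mean of at least 1 CPM and an SE under 1 in all 8 comparisons, KO over CTL on the left and ATRA over none on the right, MN1 in purple and H9M in green. Adgre1, Gpr84 and Gpr65 lie right of 0 in all 4 KO comparisons, Adgre5 in all 4 ATRA comparisons, and Gpr12 lies on opposite sides in the models for KO.

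The response to ATRA was read in KO and in CTL cells. In MN1 CTL cells 12 of 45 were called, 6 higher and 6 lower, where 21.8% of all tested genes were called, and in MN1 KO cells 13, 7 higher and 6 lower (18.8%). In H9M CTL cells 12 were called, 6 in each direction (25.2%), and in H9M KO cells 18, 9 in each direction (29.4%). With median-ratio (RLE) size factors the MN1 KO split was 9 higher and 5 lower, and without replicate 2 of the MN1 KO group without ATRA its count was 8. Adgre1 and Adgre5 were higher in all 4 and Gpr141 lower in all 4, while Adgrg1, Gpr12, Gpr137b, Gpr146 and Gpr160 were called in both directions. Genes called in no ATRA comparison included Adgrg2, Gpr18, Gpr19, Gpr35, Gpr45, Gpr85, Gpr89, Gpr132, Gpr137, Gpr141b, Gpr161, Gpr171, Gpr176, Gpr179 and Gpr183. How many of all tested genes were called in all 4, in both directions or in none was not counted. Neutrophil markers summed to 10.2 to 11.7 CPM with ATRA and 14.8 to 16.2 CPM without in MN1 CTL cells, with none at 0, and to 3.96 to 4.48 CPM and 22.6 to 24.1 CPM in H9M CTL cells, with S100a9, Ltf, Camp and Ngp at 0 with ATRA and Ltf at 0 without. Of 6 tested, 3 were lower in each model. Monocyte and macrophage markers summed to 13.4 to 15.5 CPM with ATRA and 8.84 to 10.6 CPM without in MN1 CTL cells, with 2 of 5 tested higher, and to 28.4 to 29.6 CPM with ATRA and 32.6 to 36.3 CPM without in H9M CTL cells, with 2 of 5 lower. In KO cells they summed to 20.1 to 23.7 CPM with ATRA and 23.1 to 24.9 CPM without in MN1, and to 246 to 252 CPM and 298 to 306 CPM in H9M. The part of both marker lists in these changes was not tested.

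The knockout and ATRA interacted in H9M cells for 8 of the 45 genes, 5 above and 3 below additivity, where 5.04% of all tested genes were called. Beside Adgre1, Gpr12 and Adgre5 these included Gpr160 (0.50 ± 0.09, adjusted p 0.000435), Adgra3 (0.41 ± 0.12, adjusted p 0.0433) and Gpr141 (-0.33 ± 0.08, adjusted p 0.0163). The count was 5 without replicate 1 of the H9M KO group, without replicate 2 of the H9M KO group with ATRA, without replicate 3 of the H9M CTL group, and without replicate 3 of the H9M CTL group with ATRA. Adgra3 lost its call with RLE size factors (adjusted p 0.051), with the replicate block (0.0604), after removal of the control share described next (0.073) and without any 1 of 9 libraries, and Gpr141 without any 1 of 4 libraries. Removing the 7.51% share of control counts from the H9M KO libraries with ATRA left 8 called, 7 of them the same genes. In MN1 cells 1 gene, Gpr12, was called, where 2.78% of all tested genes were, and 2 to 3 genes with RLE size factors, without a filter, with at least 1 CPM in 3 libraries and with DESeq2. It was 2 without replicate 1 of the MN1 KO group with ATRA, without replicate 1 of the MN1 CTL group or without replicate 2 of the MN1 CTL group with ATRA, and 3 without replicate 3 of the MN1 CTL group with ATRA.

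The effect of the knockout without ATRA differed between MN1 and H9M for 13 genes, 7 more positive and 6 more negative in MN1, where 28.4% of all tested genes differed. The largest among those with at least 2 CPM in a group were Gpr171 (-3.39 ± 0.46, adjusted p 8.79e-09), Gpr12, and Gpr84 (1.37 ± 0.23, adjusted p 6.8e-06). Gpr160 (0.94 ± 0.15) and Adgra3 (0.72 ± 0.10) were more positive and Gpr141 (-0.71 ± 0.09) more negative in MN1. The ATRA effect in CTL cells differed for 9 genes, 4 more positive and 5 more negative in MN1, against 13.8% of all tested genes. Adgre1 (-1.48 ± 0.13, adjusted p 2.86e-10), Gpr12, Adgra2 (-1.20 ± 0.32), Adgrg1 (-0.83 ± 0.05) and Gpr65 (-0.41 ± 0.11) were more negative and Gpr146 (0.51 ± 0.09) more positive. Adgra2 was not called without replicate 2 of the H9M CTL group, at -0.81 (adjusted p 0.0754), and Gpr65 was not called without replicate 1 of either the MN1 or the H9M CTL group with ATRA. The models differ in the library code as well as in transforming gene, and the parts of these in the differences cannot be told apart.

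The machinery downstream of the receptors was read from a list of 81 genes for G proteins, their regulators, cyclases, phosphodiesterases and effectors, of which 65 were tested. Without ATRA 38 were higher and 11 lower in MN1 KO cells and 26 higher and 14 lower in H9M KO cells, with median log2 fold changes of 0.22 and 0.10. Over all tested genes 28.7% were higher and 26.3% lower in MN1 KO cells, and 26.1% and 25.4% in H9M KO cells. With ATRA 34 were higher and 13 lower in MN1 KO cells (median 0.22, beside 28.6% and 28.6% of all tested genes), and 19 higher and 15 lower in H9M KO cells (median 0.02, beside 26.7% and 24.4%). Gng2, a G protein gamma subunit, rose in both, by 1.05 ± 0.05 in MN1 and 0.85 ± 0.05 in H9M, as did the cyclase Adcy7 (0.62 ± 0.04 and 0.10 ± 0.04) and the protein kinase A subunit Prkar2b (0.38 ± 0.06 and 0.66 ± 0.07). Pde8a, which breaks down cAMP, rose in MN1 KO cells to 16.03 CPM against 0.794 CPM in CTL cells (4.32 ± 0.15, adjusted p 1.86e-24), and had 90.5 CPM in H9M KO and 98.1 CPM in H9M CTL cells. Plcb1, a phospholipase that releases calcium, moved in opposite directions, by -0.78 ± 0.10 in MN1 and 1.80 ± 0.12 in H9M, and so did Rgs9, which speeds the shut-off of G proteins, by 1.39 ± 0.19 and -0.68 ± 0.18.

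In lineage-negative bone marrow, H3K4me2 within 1 kb of the start site could be read for 67 of the 95 receptors. The 35 genes tested in the RNA had a median of 17.9 RPM in GFI-KD and 11.2 in GFI1-WT cells, the 24 detected but untested genes 1.89 and 1.84, and the 8 genes without RNA counts 0.524 and 0.615. Over 27025 genes the medians were 2.83 and 2.79. Summed over the 67 receptors the ratio of GFI-KD to GFI1-WT was 1.18 (95% counting interval 1.14 to 1.22), beside 1.01 over all genes. The values over all genes include genes without RNA, and the mark was not read over all genes tested in the RNA. Whether the receptor values differ from those of other expressed genes was therefore not tested. Beyond the genes given above, Gpr141 had 15.5 RPM in GFI-KD cells and 6.82 in GFI1-WT cells (ratio 2.28, 95% counting interval 1.68 to 3.12). Gpr85 had 17.3 RPM in GFI-KD cells and 8.83 in GFI1-WT cells (ratio 1.96, 95% counting interval 1.49 to 2.60). Adgrg6 had 27.3 RPM in GFI-KD cells and 19.0 in GFI1-WT cells (ratio 1.43, 95% counting interval 1.18 to 1.75), although its RNA was at 0 in H9M cells. The mark was also higher at receptors without a called KO change in RNA. Gpr132, called in no KO comparison, had 27.9 RPM in GFI-KD cells and 14.2 in GFI1-WT cells (ratio 1.965, 95% counting interval 1.58 to 2.45). Adgre4, with 1 RNA count in all 24 libraries, had 7.13 RPM in GFI-KD cells and 2.23 in GFI1-WT cells (ratio 3.19, 95% counting interval 1.91 to 5.55). The mark was lower in GFI-KD cells at Adgrg7, with 6.08 RPM in GFI-KD cells and 11.6 in GFI1-WT cells (ratio 0.523, 95% counting interval 0.373 to 0.728), and at Gpr12, with 1.26 RPM in GFI-KD cells and 2.68 in GFI1-WT cells (ratio 0.469, 95% counting interval 0.214 to 0.975). Adgrg2, called in no KO comparison, had 2.94 RPM in GFI-KD cells and 7.82 in GFI1-WT cells (ratio 0.375, 95% counting interval 0.233 to 0.589). Gpr89, lower in KO cells, had a ratio of 1.05. With 1 library each, these are values of 2 libraries, in other cells than the leukaemia models, and how GFI-KD was made is not given in the labels.

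**Figure D4:**
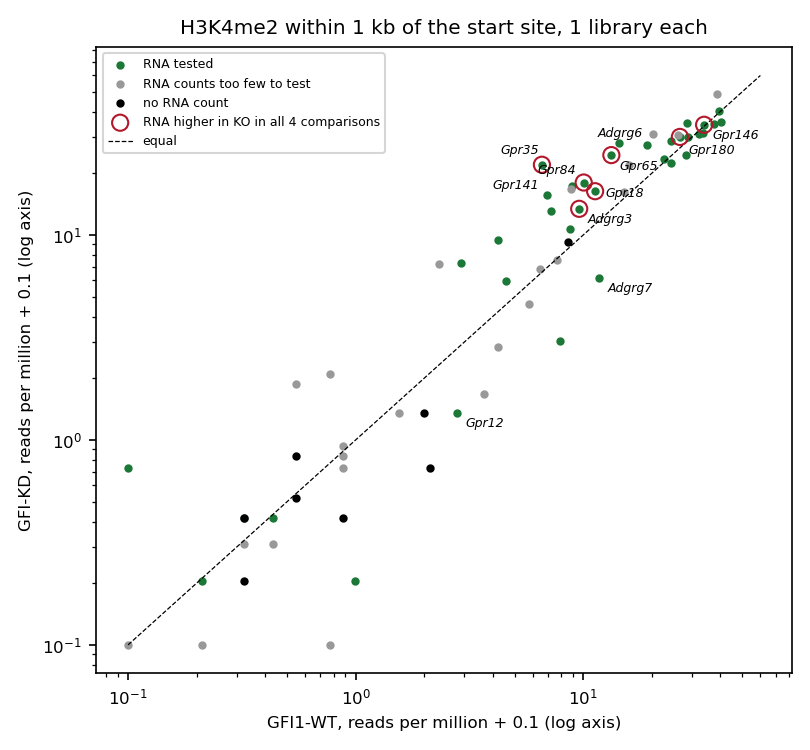
H3K4me2 RPM (+ 0.1) within 1 kb of the start site of 67 receptor genes, GFI-KD on the y axis and GFI1-WT on the x axis, both log axes, 1 library each. Gpr35, Gpr65 and Gpr84, circled among the genes whose RNA was higher in KO cells in all 4 comparisons, lie above the dashed line of equal values, and Adgrg7 and Gpr12 lie below it.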

How the data were processed

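RNA was measured in 24 libraries, and H3K4me2 in 2. Libraries were stranded total RNA read as 100-base pairs, per the labels' protocols. The deposited RNA table holds raw counts per gene as whole numbers. STAR 2.5.3 placed the reads on mm10, per the submitters' processing notes. The counter, its annotation and its strand setting are not stated, so counts of overlapping genes are uncertain. The deposited ChIP tables list 1 aligned read per line with a score, the mapping quality, which served as a filter at 10. CASAVA 1.8.2, BWA and bedtools 2.27.0 are named for them, per the submitters' processing notes. An input library was not used here.

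Symbols matched 48349 of 48795 Ensembl IDs without their version. Counts were filtered by filterByExpr (14663 genes kept), scaled by TMM and fitted with edgeR 4.0.16 (R 4.3.3) as 8 group means with 16 residual degrees of freedom and a common biological coefficient of variation of 4.01%. Comparisons were tested by the quasi-likelihood F test, two-sided, with Benjamini-Hochberg adjustment over all tested genes and calls below an adjusted p of 0.05. Log2 fold changes carry the SE of this fit. CPM use the library total alone. A group at 0 is given as a bound against 3 counts over the group, and a group of 1 to 3 counts as a ratio with an exact 95% interval. The test was checked on simulated data. ChIP reads were counted once per position and strand within 1000 bases of the RefSeq start (GRCm38.p6) that had the most reads, as RPM of the reads kept (9538627 in GFI-KD, 8949072 in GFI1-WT).

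Genes with values in every library are those called with an absolute log2 fold change of at least 1, 2 CPM or more on the higher side and separate replicates in at least 1 KO or ATRA comparison. Also named were the 5 highest in CPM per model, the most often called per class, and up to 6 per interaction or difference between models. Genes named outside this rule, such as Gpr34, Gpr39, Gpr55, Gpr155, Gpr174, Gpr183, Adgrf1 and Adgrg7, were chosen after their values were seen. Some genes are not reported here. The members and lists were chosen with earlier results of these data known. Alternatives were RLE size factors, no filter, at least 1 CPM in 3 libraries, DESeq2 1.42.0, a replicate block, removal of the control share from 1 group, and leaving out each library. Replicates of a group differed by more than sampling noise, so none was taken as a library deposited again, and their spread may still be technical.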

Additional observations from a re-analysis of the deposited data

Results flagged for a closer look

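For 12 tested differences between the models, the same contrast gave different effects in MN1 and H9M cells by edgeR's test of the difference itself, on the log2 scale as MN1 minus H9M. For the KO effect without ATRA the values were -3.39 for Gpr171, 1.59 for Gpr12, 1.37 for Gpr84, 0.94 for Gpr160, 0.72 for Adgra3 and -0.71 for Gpr141. Gpr12 and Gpr141 had KO changes of opposite sign in the models, each called. For Gpr171 and Gpr84 both models rose, Gpr171 more in H9M and Gpr84 more in MN1.

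For the ATRA effect in CTL cells the values were -1.48 for Adgre1, -1.33 for Gpr12, -1.20 for Adgra2, -0.83 for Adgrg1, 0.51 for Gpr146 and -0.41 for Gpr65. Gpr12 and Adgrg1 rose in H9M and fell in MN1 cells. The code in the column names differs between the models too, and what it stands for is not given, so model and code cannot be told apart.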

How the results depend on the processing

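The counts of called genes were recomputed with RLE size factors, without a filter, with at least 1 CPM in 3 libraries, with DESeq2, with a replicate block, after removing the control share from the H9M KO group with ATRA, and without each library. Of 43 results for single genes, 39 kept their side of the threshold in every alternative run, and none reversed. The 4 that did not were the H9M interactions of Adgra3 and Gpr141 and the model differences in ATRA effect of Adgra2 and Gpr65. The cause was not tested.

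The MN1 interaction count of 1 was 2 with RLE size factors, 3 without a filter, 2 with at least 1 CPM in 3 libraries and 3 with DESeq2, and 1 to 3 without single libraries, Gpr12 being called in all of these. The H9M interaction count of 8 was 5 to 7 without single libraries, and the count for ATRA in MN1 KO cells of 13 was 8 to 11 without single libraries. The other counts, and the H3K4me2 ratio (1.16 to 1.18), moved by no more than 1.5 times.

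Deviations of samples that share a replicate number had correlations of -0.046 to 0.082 over 9 comparisons. For H9M KO against CTL cells these were 0.065, 0.070 and 0.051 with ATRA, and -0.022, -0.017 and -0.008 without. Whether the numbers pair the samples was not tested. With the replicate block 31 genes were called for KO in MN1 with ATRA and 31 without, 23 and 27 in H9M, 11 and 12 for ATRA in MN1 KO and CTL cells, 17 and 12 in H9M, and 1 and 7 for the interactions in MN1 and H9M. It ended the call of Adgra3's H9M interaction (adjusted p 0.0604). Depth limits the genes under 1 CPM, where a group can rest on fewer than 30 counts.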
